A study of Mus musculus with 48 samples.

Results

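Pdgfra, Cspg4, Lhfpl3, Sox6, Olig1, Olig2, Gpr17, Enpp6, Bcas1 and Tcf7l2 are genes of the early oligodendrocyte lineage, and their transcripts were followed through 48 RNA-seq libraries of cells sorted from mouse brain. The 10 genes were chosen by symbol, with earlier results of these data known, and each had 1 row among the 24421 gene entries of the count tables. Of the 10 genes, 6 (Pdgfra, Cspg4, Lhfpl3, Gpr17, Enpp6 and Bcas1) were higher in every library of the mCherry sorts labelled neurons than in any library of the GFP astrocyte sorts, while the transcription factor genes Olig1, Olig2, Sox6 and Tcf7l2 were read in every library of both.

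Oligodendrocyte precursor cells persist in the adult brain and divide under the control of platelet-derived growth factor, which acts through the receptor PDGFRA. When they begin to differentiate they lose this receptor and pass through a committed stage marked by the receptor GPR17, then a newly formed stage marked by ENPP6 and BCAS1, before they make myelin. OLIG1, OLIG2 and SOX6 are transcription factors of the lineage, TCF7L2 is the Wnt pathway effector that newly formed oligodendrocytes switch on, CSPG4 is the NG2 proteoglycan of precursors and of the mural cells of vessels, and LHFPL3 is a tetraspan-like membrane protein listed among precursor markers. Olig2 and Sox6 are also known in some astrocytes.

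The libraries fell into 16 groups of 3. The Gq groups came from Aldh1l1-GFP mice, in which GFP marks astrocytes, and were labelled Gq-CNO or Gq-Saline: CNO is the ligand of the designer receptor that Gq names, and saline is its vehicle. The labels do not say which cells carried the receptor. From each of olfactory bulb (OB), cortex (CX) and hippocampus (HP) there was a GFP sort labelled astrocytes and an mCherry (mCh) sort labelled neurons. From the same genotype there were OB astrocytes of a CNO-control group and of an untreated group. The last groups were OB mCh astrocytes of Slc22a3-FF mice, which carry a floxed Slc22a3 gene, in 2 groups: Slc22a3-cKO, which received Gfap-Cre, and flox control, which received Gfap-mCh in its place. Both are titled mCh astrocytes, but the column headers name the Slc22a3-cKO sort RFP and the flox control sort mCh. This sort name cannot be told apart from the genotype. The Gfap promoter is active in astrocytes and in adult neural stem cells, so other cells keep the floxed gene. Ages and sexes are not given in the sources used here, nor is it said that the libraries of a group came from separate mice, so the p-values measure the spread between libraries, which may be technical.

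The libraries held 228048 to 24664376 reads. The mCh sorts labelled neurons held many transcripts of other cells: 10 mature oligodendrocyte genes such as Mbp and Mog summed to 18360 to 60440 reads per 1000000 (RPM) there, 10 microglial genes to 3721 to 12540 RPM, and 10 neuronal genes to 1547 to 4482 RPM. In the GFP sorts 12 astrocyte genes summed to 46560 to 133400 RPM and the mature oligodendrocyte genes to 782 to 3360 RPM. The neuronal genes summed to 551 to 1362 RPM in the GFP sorts, below every mCh neuron-labelled library. The mCh astrocyte sorts of the Slc22a3-FF mice held 4282 to 10730 RPM of the microglial genes and 1843 to 12420 RPM of the astrocyte genes. Slc22a3 itself had 0 reads in all 3 flox control libraries and 0, 0 and 12 reads in the Slc22a3-cKO libraries, so it gives no check of the knockout. In bulk libraries such as these, fewer cells of a type and less RNA per cell cannot be told apart.

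Promoters of 3 of the genes are shown because they stand for the separation described next: Pdgfra and Enpp6 were far higher in the mCh sorts labelled neurons, and the ranges of Olig2 overlapped between the sorts. Each stretch runs from 250 bases before to 50 bases after the transcription start in RefSeq on GRCm38.p6, all on the plus strand, and the capitals mark CANNTG, the E-box that basic helix-loop-helix factors such as OLIG2 bind, which reads the same on both strands.
Pdgfra chr5:75152001-75152300: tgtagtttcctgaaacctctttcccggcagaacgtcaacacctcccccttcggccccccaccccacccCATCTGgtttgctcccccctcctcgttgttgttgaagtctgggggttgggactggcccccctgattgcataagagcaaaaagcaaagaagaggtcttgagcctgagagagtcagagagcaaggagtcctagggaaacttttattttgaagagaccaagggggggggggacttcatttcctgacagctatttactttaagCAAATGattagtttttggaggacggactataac
Enpp6 chr8:46986637-46986936: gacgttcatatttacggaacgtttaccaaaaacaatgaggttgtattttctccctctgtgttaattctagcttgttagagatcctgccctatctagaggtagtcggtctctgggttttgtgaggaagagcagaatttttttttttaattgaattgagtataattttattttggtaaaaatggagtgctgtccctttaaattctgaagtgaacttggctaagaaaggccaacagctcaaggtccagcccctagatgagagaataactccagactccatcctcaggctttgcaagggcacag
Olig2 chr16:91225300-91225599: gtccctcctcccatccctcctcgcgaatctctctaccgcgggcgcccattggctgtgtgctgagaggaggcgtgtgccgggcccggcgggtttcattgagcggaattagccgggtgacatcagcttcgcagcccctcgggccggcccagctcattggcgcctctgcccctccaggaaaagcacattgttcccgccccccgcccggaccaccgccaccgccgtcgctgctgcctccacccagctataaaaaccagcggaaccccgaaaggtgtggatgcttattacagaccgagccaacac
Pdgfra holds 2 such motifs, and Enpp6 and Olig2 hold 0 in this window. CANNTG was found in 72.3% of all 32851 promoters of this length, so its presence is common. The SOX-type motif ACAANG, searched on both strands, occurs 1 time in each of the 3 windows and in 41.2% of the same promoters. RefSeq promoters were matched for 7 of the 10 genes.

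The precursor genes were compared first over all 48 libraries, in RPM, because the sorts were normalised in separate tables; these levels carry no test. Pdgfra, the growth factor receptor, lay between 231 and 955.4 RPM (median 543) in the 18 mCh neuron-labelled libraries, against 0 to 77.9 RPM (median 7.96) in the 24 GFP libraries. Cspg4, the NG2 proteoglycan, lay between 26.9 and 162 RPM (median 89.7) in those mCh libraries, against 0 to 14.6 RPM (median 1.30) in the GFP libraries. Lhfpl3 lay between 158 and 450 RPM (median 256), against 0 to 32.8 RPM (median 5.94). None of the ranges of these 3 genes overlapped between the sorts.

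Genes of the committed and newly formed stages showed the same division. Gpr17, the receptor of the committed stage, lay between 126 and 516 RPM (median 299) in the mCh neuron-labelled libraries, against 0 to 33.0 RPM (median 2.08) in the GFP libraries. Enpp6, a choline phosphodiesterase of newly formed oligodendrocytes, lay between 61.5 and 303 RPM (median 122), and it had 0 reads in 12 of the 24 GFP libraries, with a highest value of 19.1 RPM. Bcas1, a myelin-associated protein of newly formed and maturing cells, lay at 1477 to 4088 RPM (median 2210) against 13.4 to 296 RPM (median 47.2). Of the 19585 genes with at least 1 read, 1.44% had their lowest mCh neuron-labelled library above their highest GFP library, against 6 of these 10 genes. The 10 genes were chosen with earlier results of these data known, so the 2 shares are a description and not a test. The companion lists differed: the 14 newly formed companions summed to 2110 to 3450 RPM in the mCh neuron-labelled libraries, above the 617 to 1105 RPM of the GFP libraries, whereas the 16 precursor companions had a lower median sum in the mCh sort, 3286 RPM against 4560 RPM, with overlap.

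The transcription factor genes did not separate the sorts. Olig1 lay between 229 and 505 RPM (median 308) in the mCh neuron-labelled libraries, against 22.8 to 262 RPM (median 96.6) in the GFP libraries, and the ranges overlapped. Olig2 lay between 23.3 and 227 RPM (median 143), against 7.60 to 75.4 RPM (median 30.6), again with overlap. Sox6 had similar medians, 141 RPM in the mCh neuron-labelled libraries and 158 RPM in the GFP libraries. Tcf7l2 had the lower median in the mCh sort, 65.1 RPM against 109 RPM. These 4 genes had reads in all 24 GFP libraries.

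In the 6 mCh astrocyte libraries of the Slc22a3-FF mice most of the genes were low. Lhfpl3 had the highest median level per kilobase there, 22.9 RPM per kb, from libraries of 20.8 to 160 RPM (median 73.6). Olig1, read in every GFP library, lay between 0 and 31.0 RPM (median 2.86) in this sort. Bcas1 lay between 6.003 and 53.6 RPM (median 20.4), and Pdgfra between 3.78 and 78.8 RPM (median 12.1). All 6 libraries lay below every mCh neuron-labelled library for Pdgfra, Cspg4, Gpr17, Enpp6, Bcas1, Olig1, Olig2 and Sox6.

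Per kilobase of exon, which allows levels to be compared between genes, the median order in the mCh neuron-labelled libraries began with Bcas1 at 586 RPM per kb, followed by Olig1 at 143, Lhfpl3 at 79.7, Gpr17 at 57.5, Olig2 at 56.6 and Pdgfra at 54.1 RPM per kb. Enpp6 at 19.0, Sox6 at 9.52, Cspg4 at 7.52 and Tcf7l2 at 7.42 RPM per kb closed it. In the GFP libraries Olig1 led at 44.7 RPM per kb, and Bcas1, Tcf7l2, Olig2 and Sox6 lay between 10.6 and 12.5 RPM per kb. The other 5 genes were at or below 1.85 RPM per kb there. All of the genes but Cspg4 and Olig2 are overlapped by another gene of the GENCODE annotation, in most cases on the opposite strand (Enpp6 by Gm45600, Bcas1 by Bcas1os1, Gpr17 by Lims2), and whether the counting used strand is not given in the sources used here.

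**Figure D1:**
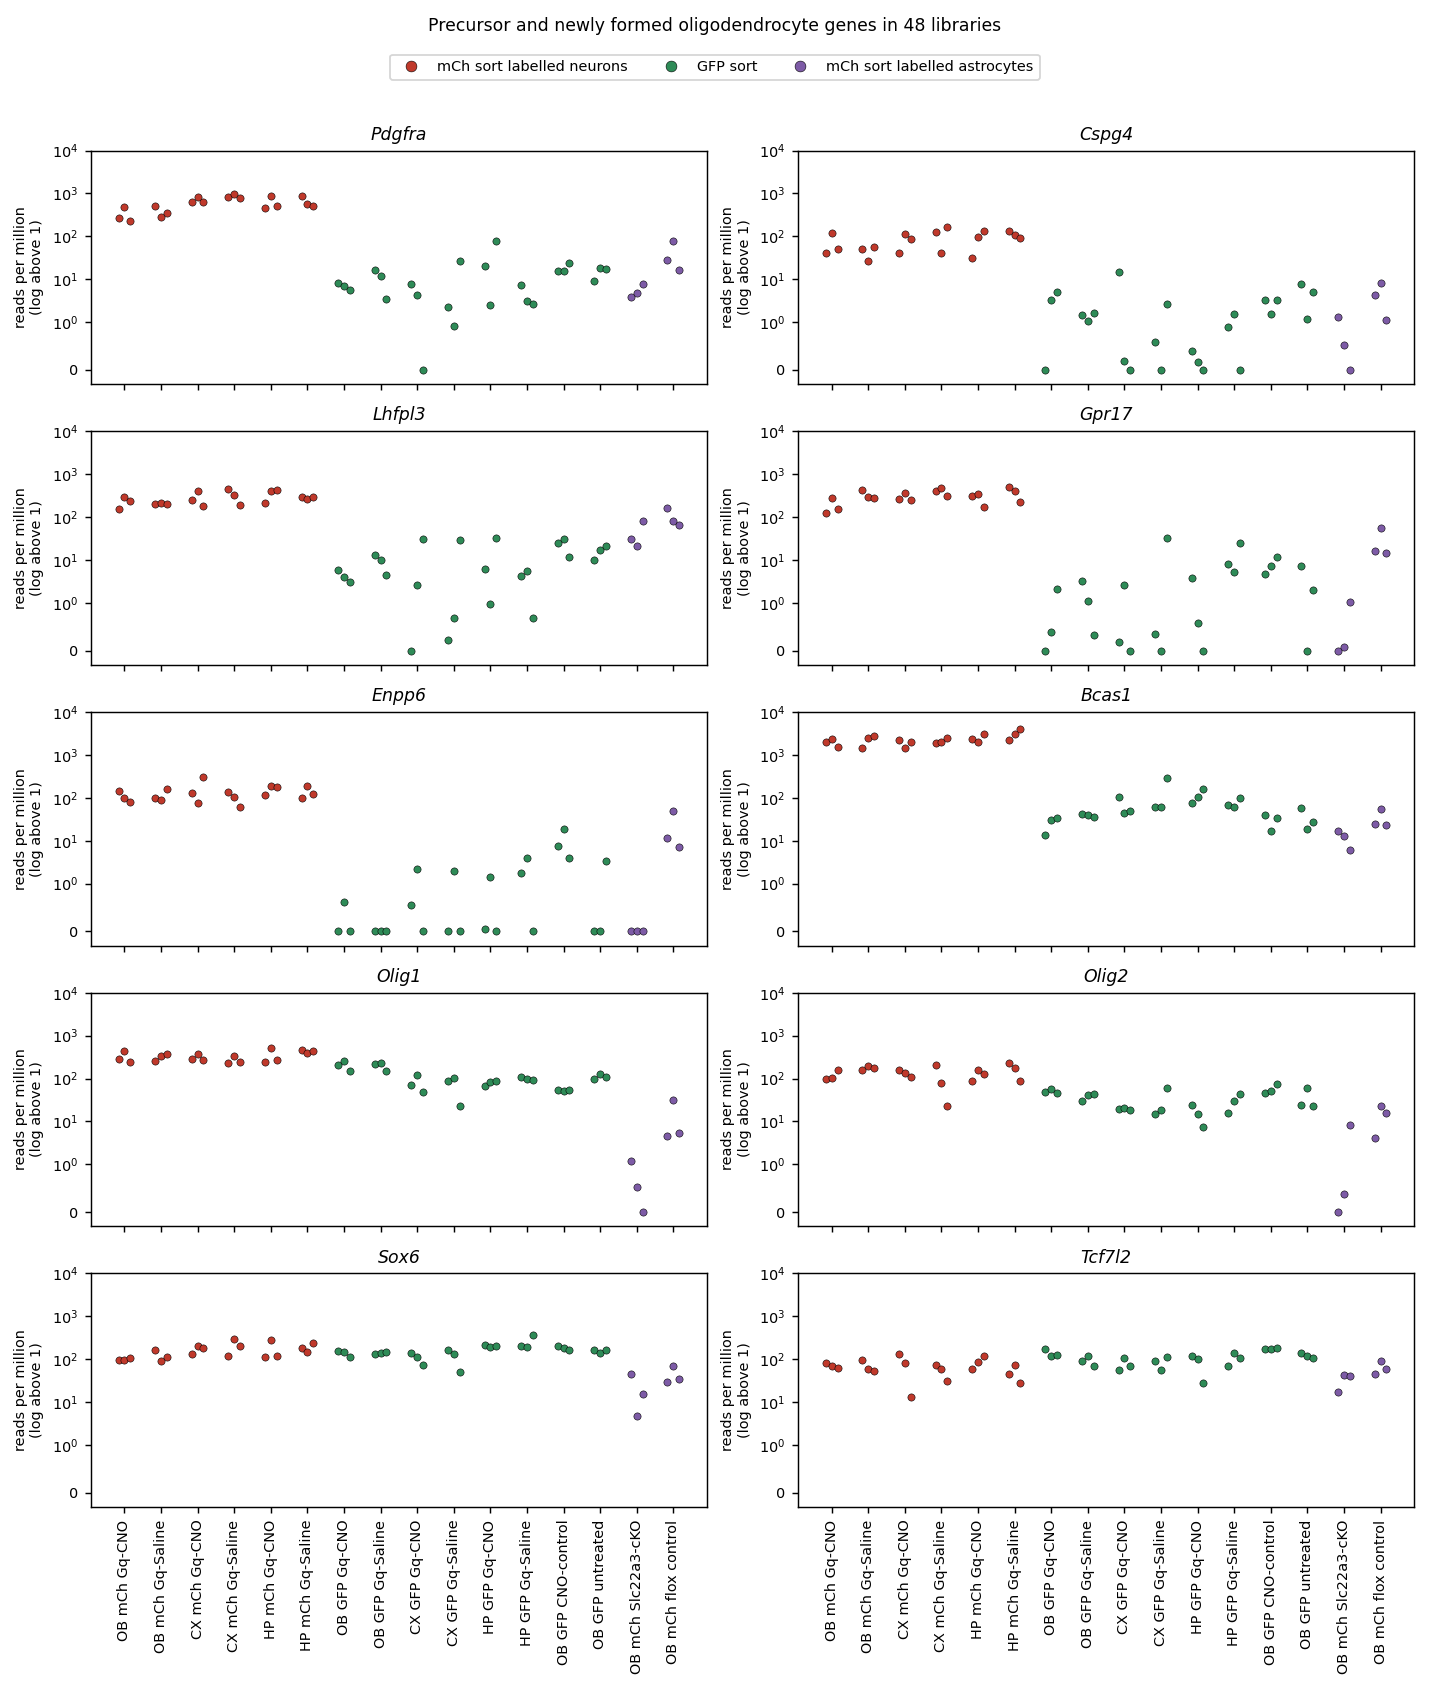
RPM (vertical axis, logarithmic above 1 and linear below it) of each gene in the 48 libraries, 1 point a library, by group; red points are mCh sorts labelled neurons, green points GFP sorts and purple points mCh sorts labelled astrocytes. Red points of Pdgfra, Cspg4, Lhfpl3, Gpr17, Enpp6 and Bcas1 lie above all green points, while those of Olig1, Olig2, Sox6 and Tcf7l2 overlap them.

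Within the GFP sorts the levels differed by group. Olig1 averaged 208 ± 54.8 RPM in OB Gq-CNO astrocytes and 201 ± 47.4 RPM in OB Gq-Saline astrocytes, 53.5 ± 1.04 RPM in OB CNO-control astrocytes and 111 ± 14.1 RPM in OB untreated astrocytes (SD, n = 3 each), with the CX and HP groups between 72.0 and 99.3 RPM. Neighbouring CX and HP groups in that order overlapped in most cases. A cortical library stood apart: the Gq-Saline library numbered 4 had 296 RPM of Bcas1, 33.0 RPM of Gpr17 and 27.2 RPM of Pdgfra, while the other 2 libraries of its group had 61.0 and 60.3 RPM of Bcas1 and at most 0.349 RPM of Gpr17 and 2.33 RPM of Pdgfra. Its Olig1 level, 22.8 RPM, was the lowest of the GFP sorts. The highest sums of the mature oligodendrocyte genes (3360 RPM) and of the microglial genes (2430 RPM) among the GFP libraries were in this library. In HP Gq-CNO astrocytes 1 library had 77.9 RPM of Pdgfra and 0 RPM of Gpr17, Enpp6 and Cspg4, and the other 2 had 20.7 and 2.52 RPM of Pdgfra.

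Among the 18 mCh neuron-labelled libraries the 10 genes did not vary as 1 block. The highest Pearson correlations of log2(RPM + 1) between pairs of them were 0.75 for Pdgfra with Sox6 and 0.71 for Gpr17 with Pdgfra, and the lowest was -0.29 for Olig2 with Sox6; libraries of a region share it, so these values are a description only. The genes most like Pdgfra among 9925 genes were Dlgap3 (r = 0.88, Spearman 0.83), Lingo1 (r = 0.88, Spearman 0.82), Bsn (r = 0.88, Spearman 0.83), Kifc2 (r = 0.88, Spearman 0.82) and Psd3 (r = 0.87, Spearman 0.78). Those most like Enpp6 were Cdkn2c (r = 0.78, Spearman 0.75), Cwc22 (r = 0.78, Spearman 0.78), S100a6 (r = 0.75, Spearman 0.71), Spata2l (r = 0.73, Spearman 0.69) and Rgs2 (r = 0.73, Spearman 0.62).

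Regions were compared within the mCh neuron-labelled sort, whose 18 libraries were normalised together, with limma on log2(normalised reads + 1). A gene is called where its Benjamini-Hochberg adjusted p over all 12358 genes tested is under 0.05. Pdgfra was lower in the olfactory bulb than in either other region, and it was the 1 gene of the 10 called. In OB its normalised reads were 657, 1121 and 574 with Gq-CNO and 1246, 702 and 861 with Gq-Saline. In CX they were 1580, 1946 and 1531 with Gq-CNO and 2106, 2370 and 2081 with Gq-Saline. Every OB library lay below every CX library, which held in the lower direction for 1.59% of all genes.

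The OB mean of Pdgfra was 860 ± 270 normalised reads, against 1936 ± 325 in CX (SD, n = 6 libraries each), a log2 difference of -1.21 ± 0.20 (SE, limma adjusted p = 8.2e-05). The median gene moved by 0.39 in this contrast by limma. The Pdgfra difference was -1.15 with edgeR (adjusted p = 0.000339) and -1.17 with DESeq2 (adjusted p = 8.61e-06). Against HP, where Pdgfra averaged 1527 ± 416 normalised reads, the OB difference was -0.84 ± 0.20 (limma adjusted p = 0.00914; median of all genes 0.14) and the libraries overlapped. The contrasts of OB share the OB libraries. The call against HP was lost without HP Gq-CNO replicate 2 (limma adjusted p = 0.0557). CX and HP differed by 0.37 ± 0.20 (limma adjusted p = 0.519), where the median of all genes was -0.20. Of all genes, 8.58% were called between OB and CX, 3.91% between OB and HP and 0.388% between CX and HP.

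Sox6, a factor of precursors, averaged 271 ± 67.1 normalised reads in OB, against 465 ± 152 in CX (n = 6 each; log2 difference -0.75 ± 0.28, limma adjusted p = 0.0943), and passed the threshold only without CX Gq-Saline replicate 1 (limma adjusted p = 0.0396). Gpr17 averaged 635 ± 266 in OB and 852 ± 216 in CX (-0.50 ± 0.24, limma adjusted p = 0.197). Lhfpl3 averaged 531 ± 108 in OB and 749 ± 279 in CX (-0.44 ± 0.25, limma adjusted p = 0.290). Bcas1, at 5156 ± 1278 in OB and 4962 ± 925 in CX, and Olig1, at 778 ± 170 in OB and 717 ± 124 in CX, were not called (limma adjusted p = 0.924 and 0.814). The OB libraries of these genes overlapped the CX libraries.

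Companion genes of the precursor stage, a list of 16, included 3 that fell in OB against CX and 0 that rose. Megf11, a receptor-like gene, averaged 67.8 ± 36.6 normalised reads in OB and 240 ± 50.3 in CX (log2 difference -2.001 ± 0.409, limma adjusted p = 0.00108). Vcan, a matrix proteoglycan, averaged 613 ± 218 and 1506 ± 844 in OB and CX (-1.19 ± 0.25, limma adjusted p = 0.00175), and Tnr, tenascin-R, averaged 1267 ± 199 and 2340 ± 664 (-0.85 ± 0.19, limma adjusted p = 0.00218). Rlbp1 was not called by limma (adjusted p = 0.0882) but was by edgeR (adjusted p = 0.0155) and DESeq2 (adjusted p = 0.00304). Against HP, Vcan, Neu4 and Megf11 fell in OB and Ptprz1, a receptor phosphatase, rose to 4670 ± 1103 normalised reads against 2949 ± 566 in HP (0.64 ± 0.18, limma adjusted p = 0.0284, edgeR adjusted p = 0.0541). The median log2 difference of the tested precursor companions was -0.34 against CX and -0.44 against HP.

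Limma and edgeR called 0 of 12 tested companions of the newly formed stage in each region contrast, and DESeq2 called Cnksr3 between CX and HP (adjusted p = 0.0372). Among the PDGF ligand and receptor genes, Pdgfrb, the receptor of mural cells, rose in OB to 90.8 ± 75.3 normalised reads against 8.02 ± 8.68 in CX (3.89 ± 0.90, limma adjusted p = 0.00415) and 10.0 ± 8.18 in HP (3.26 ± 0.90, limma adjusted p = 0.0293), and the ligand genes Pdgfa, Pdgfb and Pdgfc were not called in either contrast. Other cell type markers moved with region. In OB against CX, 8 of 12 astrocyte genes, 4 of 7 neuroblast genes, 3 of 4 tested olfactory ensheathing glia genes and 2 of 5 tested mural genes rose, and 5 of 10 microglial genes fell. Of 10 neuronal genes 2 rose and 3 fell. The astrocyte genes summed to 7539 to 21980 RPM in OB and 5571 to 9985 RPM in CX, and the microglial genes to 3721 to 7989 RPM in OB and 7899 to 12180 RPM in CX. The neuroblast genes Dlx2 and Dlx5 had 0 reads in all CX and HP libraries of the sort. The OB libraries held 1754513 to 5878522 reads with 18.2 to 23.1% from Rn45s, against 228048 to 2488821 reads and 8.00 to 16.4% in CX. The part of these cells, of depth and of RNA composition in the Pdgfra difference was not tested.

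**Figure D2:**
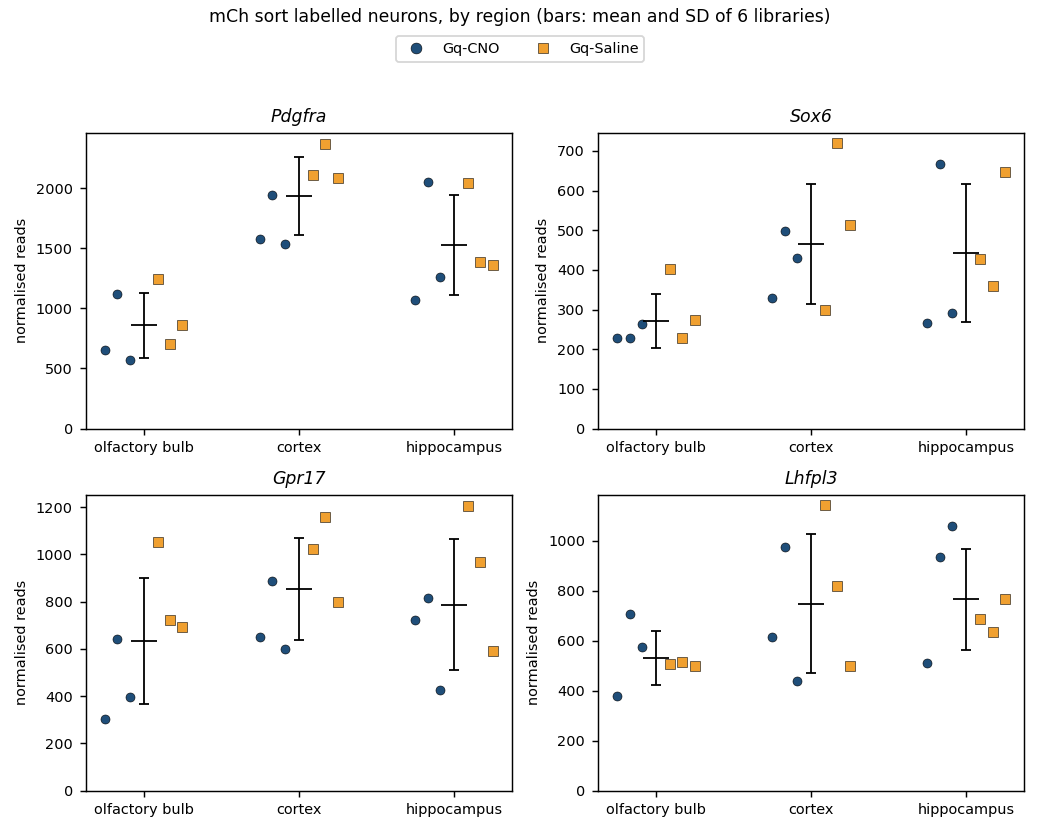
Normalised reads (vertical axis, from 0) of 4 genes in the mCh sort labelled neurons of olfactory bulb, cortex and hippocampus; circles are Gq-CNO and squares Gq-Saline libraries, and the bars give the mean and SD of 6 libraries. All 6 olfactory bulb points of Pdgfra lie below all 6 cortical points, and the points of Sox6, Gpr17 and Lhfpl3 overlap.

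The Gq comparisons ask whether CNO changed expression in mice carrying the receptor. None of the 10 genes was called in any of the 6 comparisons of Gq-CNO with Gq-Saline by limma, edgeR or DESeq2. Few genes of any kind were: edgeR called 0 in each comparison, DESeq2 0 to 13, and limma 0.00847% of the genes tested in OB astrocytes, and 0.0% in CX astrocytes, HP astrocytes and each of the 3 mCh sorts, where 142 to 556 genes had an unadjusted p under 0.05. Of the 10 genes, 8 passed the filter on low values in OB astrocytes (not Gpr17 and Enpp6), 7 in CX astrocytes (not Gpr17, Enpp6 and Cspg4), 9 in HP astrocytes (not Cspg4) and all 10 in each mCh sort. The Gq-CNO effect was not called to differ between any pair of regions of the mCh sort for any gene, a share of 0.0% in each of the 3 tests of the difference by limma (329 to 744 genes with an unadjusted p under 0.05; edgeR called 0 or 1 gene and DESeq2 0 to 21, none of them among the 10).

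Gpr17 had a lower mean with Gq-CNO in all 6 comparisons, though it did not pass the filter on low values in OB and CX astrocytes. Sox6 also had a lower mean in all 6, by as little as 458 against 463 normalised reads in CX astrocytes, where its log2 difference was 0.08. The share of all genes with a lower mean in all 6 was not computed, so the pattern is a description only. Replicate numbers are shared between regions and sorts, and whether the 6 comparisons came from separate mice is not given. In the OB mCh sort Gpr17 had 303, 641 and 395 normalised reads with Gq-CNO, against 1053, 722 and 694 with Gq-Saline. The groups did not overlap, which held in the lower direction for 4.88% of all genes there. The log2 difference was -0.93 ± 0.31 (SE; limma adjusted p = 0.900, by the test across all genes). In the CX mCh sort the values were 649, 886 and 598 with Gq-CNO, against 1024, 1160 and 797 with Gq-Saline (-0.49 ± 0.34, limma adjusted p = 0.967). In the HP mCh sort they were 722, 814 and 427 with Gq-CNO, against 1206, 968 and 589 with Gq-Saline (-0.48 ± 0.32, limma adjusted p = 0.990). Both of these overlapped.

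In the astrocyte sorts Gpr17 was low. HP astrocytes had 35.3, 5.57 and 0 normalised reads with Gq-CNO, against 78.4, 49.7 and 286 with Gq-Saline, groups that did not overlap (4.68% of all genes in the lower direction; limma adjusted p = 0.976). OB astrocytes averaged 6.67 ± 8.93 with Gq-CNO and 12.2 ± 11.6 with Gq-Saline. CX astrocytes had 0.761, 9.95 and 0 with Gq-CNO, against 1.37, 0 and 146 with Gq-Saline, where the 146 is the library numbered 4 that stands apart. The lower Gq-CNO mean in CX astrocytes rests on that library.

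**Figure D3:**
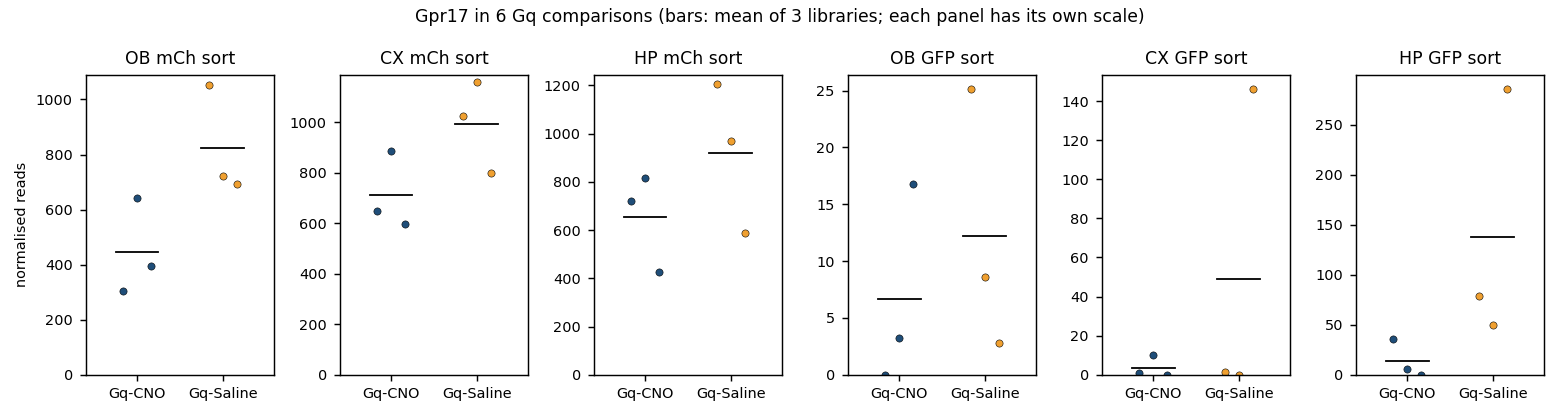
Normalised reads of Gpr17 (vertical axis, from 0, with its own scale in each panel) in Gq-CNO and Gq-Saline libraries of the 3 mCh sorts labelled neurons and the 3 GFP sorts; points are libraries and bars the mean of 3. The Gq-CNO bar is the lower one in each panel, and the points do not overlap in the OB mCh and HP GFP panels.

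Of the other genes, 3 (Tcf7l2, Bcas1 and Pdgfra) had groups that did not overlap, each in 1 sort. In OB astrocytes Tcf7l2 had 1451, 977 and 998 normalised reads with Gq-CNO, against 694, 925 and 607 with Gq-Saline, which did not overlap (4.89% of genes in the higher direction; 0.62 ± 0.24, limma adjusted p = 0.996). Bcas1 there had 110, 255 and 263 with Gq-CNO, against 328, 317 and 311 with Gq-Saline (5.0% of genes in the lower direction; -0.70 ± 0.39, limma adjusted p = 0.996). Neither was called.

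In the CX mCh sort Pdgfra had 1580, 1946 and 1531 normalised reads with Gq-CNO, against 2106, 2370 and 2081 with Gq-Saline (4.98% of genes in the lower direction; -0.38 ± 0.27, limma adjusted p = 0.967). Pdgfra in HP astrocytes averaged 379 ± 474 with Gq-CNO and 43.76 ± 24.03 with Gq-Saline, a mean carried by 1 library at 917 normalised reads. Olig2 in the OB mCh sort averaged 290 ± 80.9 with Gq-CNO and 429 ± 46.9 with Gq-Saline (-0.59 ± 0.33, limma adjusted p = 0.900). The median log2 difference of the tested genes among the 10 lay between -0.33 and -0.10 in the 6 comparisons, and the median of all genes between -0.06 and 0.05. None of the precursor, newly formed or PDGF companions was called in the 6 comparisons by limma, edgeR or DESeq2.

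In OB astrocytes CNO-control was compared with untreated, both from mice whose labels do not mention Gq. Olig1 was lower in CNO-control, at 209, 189 and 194 normalised reads against 454, 533 and 478 in untreated astrocytes. The groups did not overlap (16.2% of all genes in the lower direction), with means of 197 ± 10.3 and 489 ± 40.5 (SD, n = 3 each) and a log2 difference of -1.30 ± 0.21 (SE; limma adjusted p = 0.0020, edgeR adjusted p = 0.00153, DESeq2 adjusted p = 3.85e-08). It was the 1 gene of the 10 called, where 12.2% of all 10940 genes were.

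Olig1 lies at chr16:91269772-91271933 and Olig2 at chr16:91225457-91228677 (GRCm38, both plus strand, GENCODE). Olig2 averaged 213 ± 51.7 in CNO-control and 155 ± 86.0 in untreated astrocytes (0.56 ± 0.37, limma adjusted p = 0.356). Enpp6 had 29.0, 69.0 and 14.2 normalised reads in CNO-control, against 0, 0 and 14.6 in untreated astrocytes (limma adjusted p = 0.0732), and was called without untreated replicate 3 (limma adjusted p = 0.0182). Gpr17 averaged 28.5 ± 12.2 and 14.1 ± 17.4 in CNO-control and untreated astrocytes (limma adjusted p = 0.290). Sox6 (678 ± 97.6 in CNO-control, 696 ± 93.6 untreated), Pdgfra (67.5 ± 16.3 and 64.8 ± 18.5) and Tcf7l2 (650 ± 34.4 and 540 ± 98.9) were not called. The median of the 10 genes was 0.13, beside 0.11 for all genes.

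Among the companions, Sox10, the lineage factor that turns on myelin genes, rose to 116 ± 41.1 normalised reads in CNO-control against 28.3 ± 4.25 untreated (1.94 ± 0.46, limma adjusted p = 0.0177). Sirt2, a deacetylase of newly formed oligodendrocytes, fell to 403 ± 48.7 against 682 ± 33.6 (-0.76 ± 0.18, limma adjusted p = 0.0175). Limma called no other of the 13 precursor and 9 newly formed companions tested; Tns3 was called by edgeR (adjusted p = 0.0403) and DESeq2 (adjusted p = 0.0132), and Rlbp1 and Vcan by DESeq2 (adjusted p = 0.0276 and 0.0457). None of 4 PDGF genes was called by any of the 3 tools. Among the mature oligodendrocyte genes, Ugt8a and Aspa rose and Mbp fell. All 10 microglial genes were lower, 8 of them called, and they summed to 105 to 174 RPM in CNO-control and 482 to 634 RPM in untreated astrocytes, with no marker at 0 in every library of a group. 5 of 12 astrocyte genes fell and 1 rose, and their sums were 46560 to 53330 RPM in CNO-control and 58280 to 63110 RPM in untreated astrocytes. Depth and RNA composition differed too: the CNO-control libraries held 6619479 to 8577907 reads, with 2.37 to 4.10% from the nuclear RNA Malat1 and 8.90 to 11.5% from the ribosomal entry Rn45s, against 1724893 to 2964862 reads, 0.254 to 0.428% and 15.7 to 23.0% in untreated libraries. The part of these cell types, of depth and of RNA composition in the Olig1 difference was not tested.

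**Figure D4:**
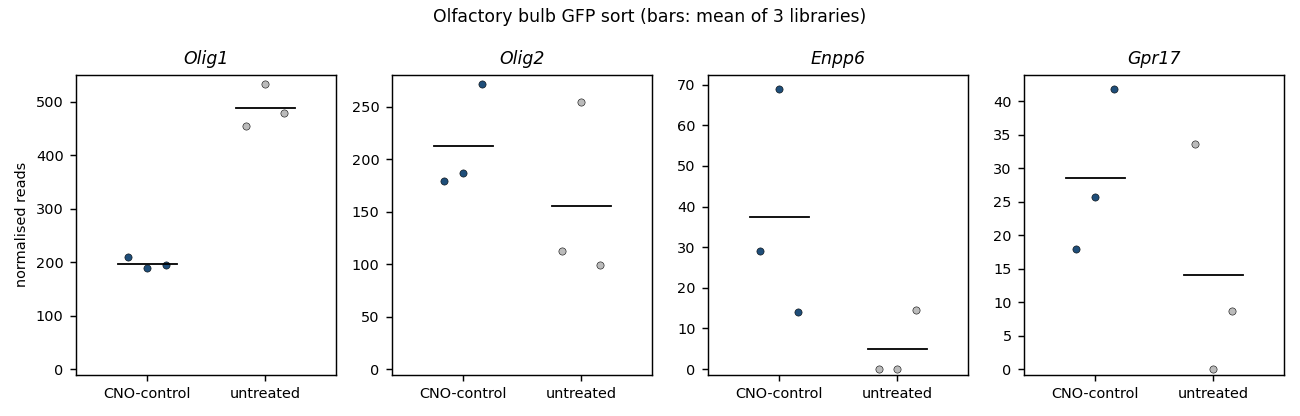
Normalised reads (vertical axis) of Olig1, Olig2, Enpp6 and Gpr17 in olfactory bulb GFP sorts of CNO-control and untreated mice; points are libraries and bars the mean of 3. The Olig1 points do not overlap, at 189 to 209 in CNO-control and 454 to 533 in untreated astrocytes, and those of the other 3 genes do.

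In the mCh astrocyte sort of the olfactory bulb, all 10 genes had lower means in the libraries labelled Slc22a3-cKO than in flox controls, and 2 of them were called. By the sign of the limma log2 difference, 54.5% of all genes tested were lower. The 10 genes belong to 1 lineage, so their directions are not separate observations. Enpp6 had 0 reads in all 3 Slc22a3-cKO libraries, against 110, 611 and 63 reads in the flox controls, or 11.4, 49.0 and 7.07 RPM. Taking a floor of 3 reads per Slc22a3-cKO library, it was at least 68.9-fold lower, a bound that flox control replicate 2 carries: without that library it was at least 28.2-fold lower. Enpp6 passed the filter on low values through the flox controls alone (limma adjusted p = 0.0105), and with no filter its limma adjusted p was 0.0181 and that of Gpr17 0.0349. Gpr17 had 0, 1 and 8 reads in Slc22a3-cKO libraries, against 161, 697 and 127 in flox controls, or 3.68 ± 5.68 against 260 ± 211 normalised reads (SD, n = 3 each; fitted log2 difference -6.29 ± 1.15, which depends on the pseudocount; limma adjusted p = 0.0180). Of all 13465 genes, 2.53% were called.

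The calls depended on single libraries. Gpr17 lost its call without any 1 of the flox controls (limma adjusted p = 0.0743, 0.196 and 0.0579 without replicates 1, 2 and 3) and without Slc22a3-cKO replicate 1 or 2 (0.0526 and 0.0638). Enpp6 stayed called without any 1 Slc22a3-cKO library, and without a flox control it was not tested, since 2 libraries then passed the filter on low values. Without Slc22a3-cKO replicate 3, 5 of the 10 genes were called, Pdgfra, Olig2 and Lhfpl3 being added. DESeq2 called 4 of the 10, adding Pdgfra and Olig1. Calls over all genes rose too, from 341 in the main fit to 1277 without that library and 1154 with DESeq2. Flox control replicate 2 was the highest library for 9 of the 10 genes, Lhfpl3 being the exception.

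Pdgfra had 39.0, 54.1 and 74.1 normalised reads in Slc22a3-cKO libraries, against 251, 710 and 150 in flox controls (-2.45 ± 0.67, limma adjusted p = 0.0745). Olig1 had 12.2, 5.74 and 0, against 40.1, 279 and 49.3 (-4.22 ± 1.27, limma adjusted p = 0.0977). Bcas1 had 178, 139 and 57.5, against 219, 483 and 216 (-1.32 ± 0.59, limma adjusted p = 0.256). With Enpp6 and Gpr17 these were the 5 genes whose groups did not overlap, as 12.2% of all genes did in the lower direction. Cspg4, Olig2, Sox6, Tcf7l2 and Lhfpl3 overlapped. Lhfpl3 averaged 439 ± 292 normalised reads in Slc22a3-cKO libraries and 917 ± 433 in flox controls. The median log2 difference was -2.63 for the 10 genes and -0.10 for all genes.

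Of the precursor companions, 12 of 14 tested were lower and 2 were called. Tnr fell to 41.5 ± 15.0 normalised reads in Slc22a3-cKO libraries against 738 ± 291 in flox controls (-4.10 ± 0.56, limma adjusted p = 0.00355), and Vcan fell to 96.0 ± 77.7 against 908 ± 468 (-3.80 ± 0.88, limma adjusted p = 0.0447, edgeR adjusted p = 0.0616). Neu4, a sialidase, had 0 in every Slc22a3-cKO library against 65.9 ± 80.1, so it passed the filter on low values through the flox controls alone. It was called by DESeq2 (adjusted p = 0.00012) but not by limma (adjusted p = 0.0630) or edgeR (adjusted p = 0.0549). Pcdh15, a protocadherin, was likewise called by DESeq2 (adjusted p = 0.00315) and not by limma (adjusted p = 0.0747). Limma and edgeR called none of 12 newly formed companions or 5 PDGF genes, and DESeq2 called Kif19a (adjusted p = 0.0336) and the ligand gene Pdgfd (adjusted p = 0.0162). Other cell types moved with these genes: 3 of 4 tested neuroblast genes were lower (1 called, Dcx), as were all 10 neuronal, all 10 mature oligodendrocyte and 11 of 12 astrocyte genes (3, 0 and 2 called), and 9 of 10 microglial genes were higher (0 called). The 7 neuroblast genes summed to 2.80 to 12.9 RPM in Slc22a3-cKO libraries, where Dlx2 and Igfbpl1 were at 0, and to 21.3 to 178 RPM in flox controls. The neuronal genes summed to 378 to 1096 RPM in Slc22a3-cKO libraries and 1403 to 3907 RPM in flox controls. The mature oligodendrocyte genes summed to 807 to 3896 RPM and 1692 to 3719 RPM, the astrocyte genes to 1843 to 4809 RPM and 5853 to 12420 RPM, and the microglial genes to 5294 to 10730 RPM and 4282 to 9889 RPM in Slc22a3-cKO libraries and flox controls. No gene of the neuronal, mature oligodendrocyte, astrocyte and microglial lists was at 0 in every library of a group. Their part in the fall of Enpp6 and Gpr17 was not tested. The sort name in the column headers, RFP or mCh, cannot be told apart from the genotype in this comparison.

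**Figure D5:**
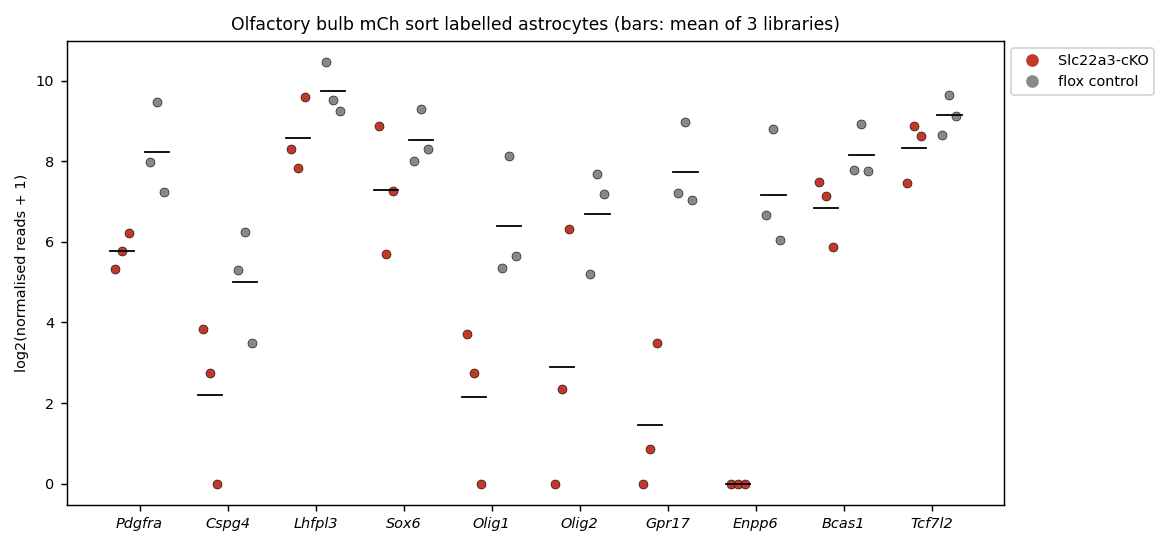
Log2(normalised reads + 1) of the 10 genes in olfactory bulb mCh sorts labelled astrocytes; red points are Slc22a3-cKO libraries, grey points flox controls, and bars the mean of 3. The Slc22a3-cKO bar is the lower one for every gene, and all 3 Slc22a3-cKO points of Enpp6 are at 0.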

How the data were processed

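Libraries were made from 10 ng of total RNA per the labels' protocols, and the submitters' processing notes name the mm10 build, FastQC 0.11.7, MultiQC 1.11, STAR 2.5.0a and DESeq2 1.30.1, with no role given. The 6 deposited tables hold a signal that, from its values, is gene counts divided by 1 size factor per library; which tool made it is not given in the sources used here. Dividing each column by its smallest positive value gave whole reads for 100.0% of values (within 0.05), from which reads per 1000000 (RPM) were computed. Rn45s, a ribosomal RNA entry, took 8.00 to 23.1% of the reads.

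Comparisons were made within a table with limma 3.58.1 (R 4.3.3, trend) on log2(value + 1), keeping genes that reached 10 in 3 or more fitted libraries. Treatment comparisons used the 6 libraries of the pair; region contrasts used the 18 mCh libraries with region by treatment groups. edgeR 4.0.16 and DESeq2 1.42.0 on recovered reads, a pseudocount of 10, no low-value filter, each library left out, a replicate block and cortical astrocytes without the libraries numbered 4 were alternatives. Within groups, 0 of 48 pairs of libraries were identical. 4 columns numbered 4 were matched to their group, not to a sample.

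The 10 genes are named throughout; of the companion lists, up to 4 genes per comparison with the smallest unadjusted p were open to naming, and the 5 genes most correlated with Pdgfra and with Enpp6 were named. The genes and lists were chosen with earlier results of these data known. Exon lengths are from GENCODE vM21. Intervals and floors cover counting error only. The result of 1 marker gene is not reported here.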

Additional observations from a re-analysis of the deposited data

Results flagged for a closer look

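In the mCh sort labelled neurons, 30 sets of 6 libraries of 1 region were examined, 1 for each gene and region, and chance sets about 1 in 20 such sets apart. 3 were set apart because 1 library lay far from the other 5. Cspg4 in the OB sort had 282 normalised reads in Gq-CNO replicate 2, and 66.1 to 141 in the other 5 libraries. Sox6 in the OB sort had 402 normalised reads in Gq-Saline replicate 1, and 228 to 273 in the others. Enpp6 in the CX sort had 724 normalised reads in Gq-CNO replicate 3, the library of 228048 reads, and 159 to 344 in the others.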

How the results depend on the processing

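Of 104 log2 differences of the 10 genes, 62 kept their sign under every alternative run and 42 changed it under at least 1. None of the 5 called differences changed sign, but that of Enpp6, with 0 reads in every Slc22a3-cKO library, could not. The number of the 10 genes called in Slc22a3-cKO against flox control was 2, and it was 4 with DESeq2 and 0 to 5 with 1 library left out. Over all genes the calls there were 341 in the main fit, 1154 with DESeq2 and 81 to 1277 with 1 library left out. With 1 library left out, the number of the 10 genes called was 1 to 2 for CNO-control against untreated, 1 to 2 for OB against CX and 0 to 1 for OB against HP. The cause was not tested, except that Enpp6 was not tested without a flox control.

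Replicate numbers were shared between groups, but no comparison had a correlation over 0.1 for every same-numbered pair (HP GFP 0.12, 0.087 and 0.13), so the numbers were not taken as pairs. In HP GFP each of these lay above the highest correlation with another number (0.083, 0.053 and -0.10). The same held in HP mCh, where same-numbered pairs reached 0.031. Pairing in HP therefore stays possible. With the replicate block the number called in Slc22a3-cKO against flox control was 1 (Gpr17 limma adjusted p = 0.0549), and the other counts were unchanged.

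Signs changed with other settings as follows, and the cause was not tested. Cspg4 in OB GFP was 0.33 with a pseudocount of 10, 0.99 with edgeR and 1.01 with DESeq2. Without both cortical libraries numbered 4, CX GFP had Olig1 at -0.063, Olig2 at 0.28, Sox6 at -0.19, Bcas1 at 0.19 and Tcf7l2 at 0.13. Tcf7l2 was -0.0030 with edgeR and -0.013 with DESeq2 in OB mCh, and 0.0032 with a pseudocount of 10, 0.50 with edgeR and 0.46 with DESeq2 in CX mCh. Olig2 in OB against HP was -0.045 and Sox6 in CX against HP -0.0059 with edgeR, and Tcf7l2 in CX against HP was 0.0067 with DESeq2. Signs also changed with 1 library left out. For CX GFP Gq-CNO against Gq-Saline, the log2 differences ran as Bcas1 -1.12 to 0.10, Lhfpl3 -0.93 to 2.04, Olig1 -0.29 to 0.75, Olig2 -0.75 to 0.31, Pdgfra -2.05 to 0.45, Sox6 -0.38 to 0.38, Tcf7l2 -0.38 to 0.15. For CX mCh Gq-CNO against Gq-Saline, the log2 differences ran as Cspg4 -1.02 to 0.011, Enpp6 -0.034 to 0.98, Lhfpl3 -0.59 to 0.0057, Olig2 -0.0197 to 1.55, Sox6 -0.56 to 0.072, Tcf7l2 -0.72 to 0.94. For HP GFP Gq-CNO against Gq-Saline, the log2 differences ran as Lhfpl3 -0.16 to 2.44, Sox6 -0.46 to 0.13. For HP mCh Gq-CNO against Gq-Saline, the log2 differences ran as Cspg4 -1.05 to 0.004, Enpp6 -0.027 to 0.47, Lhfpl3 -0.0023 to 0.52, Pdgfra -0.43 to 0.0396. For OB GFP CNO-control against untreated, the log2 differences ran as Bcas1 -0.73 to 0.14, Lhfpl3 -0.074 to 0.59, Pdgfra -0.18 to 0.22, Sox6 -0.15 to 0.063. For OB GFP Gq-CNO against Gq-Saline, the log2 differences ran as Cspg4 -1.19 to 1.51, Olig1 -0.14 to 0.28, Pdgfra -0.98 to 0.028, Sox6 -0.14 to 0.11. For OB mCh Gq-CNO against Gq-Saline, the log2 differences ran as Bcas1 -0.45 to 0.012, Enpp6 -0.36 to 0.15, Lhfpl3 -0.11 to 0.34, Olig1 -0.28 to 0.0896, Tcf7l2 -0.14 to 0.28. For mCh sort CX against HP, the log2 differences ran as Cspg4 -0.39 to 0.23, Lhfpl3 -0.24 to 0.083, Sox6 -0.044 to 0.31, Tcf7l2 -0.58 to 0.24. For mCh sort OB against CX, the log2 differences ran as Bcas1 -0.053 to 0.18, Enpp6 -0.36 to 0.14, Olig1 -0.0013 to 0.19, Tcf7l2 -0.10 to 0.73. For mCh sort OB against HP, the log2 differences ran as Olig2 -0.096 to 0.20, Tcf7l2 -0.0061 to 0.31.

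Alternatives for the sort levels were RPM without Rn45s and Malat1, joint size factors, and leaving out the 2 shallowest libraries (228048 and 325129 reads). This choice was made after seeing the data. Whether the levels stayed within the spread between replicates was not tested. Over 11049 genes, the median log2 difference of mCh minus GFP was -0.041 with RPM and -0.088 with joint size factors. In the shallowest GFP library (CX Gq-CNO numbered 4) 3 reads are worth 9.23 RPM, so a value of 0 there does not exclude levels below that.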
